A study of Marchantia polymorpha with 18 samples.

Results

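Messenger RNA was compared between Mpglr-9 and wild-type plants of the liverwort Marchantia polymorpha, over all 3 tissue states that were sampled. All 18 libraries of the series entered, 9 of the mutant and 9 of the wild type, and the tissue state was a covariate, so that 1 genotype term measured the difference shared by the 3 states. Mpglr-9 is a deletion allele of MpGLR made by CRISPR-Cas editing, and the series asked what this gene contributes to the changes in gene expression that follow wounding. The plants had grown for 28 days on soil. The intact groups were thallus of unwounded plants. On wounded plants 2 thallus lobes were crushed with serrated forceps, and 4 h later the crushed lobes (damaged) and their untouched neighbours (systemic) were taken separately. Intact thallus was taken at the same time. Each of these 3 states had 3 biological replicates per genotype, each pooled from 9 plants. Damaged and systemic libraries came from the same wounded plants and are not independent of each other. Mpglr-9 is 1 allele, and the samples hold neither a second allele nor a complemented line, so an effect of the deletion and a difference of the line cannot be told apart.

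Glutamate receptor-like proteins are plant cation channels related to the ionotropic glutamate receptors of animals. In Arabidopsis several of them are needed for the electrical and calcium signals that travel from a wound to distant leaves, where they precede jasmonate synthesis. Marchantia makes no jasmonoyl-isoleucine. It signals through dinor-OPDA, an oxylipin that binds the receptor MpCOI1 and so removes the repressor MpJAZ.

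The libraries held 17312755 to 30690205 counts in the wild type and 21678546 to 27856158 in the mutant. Of the 19355 genes of the table, 13450 had enough counts to be tested. Levels are given as CPM, that is counts divided by the TMM-scaled library size, and 3 counts corresponded to between 0.0974 and 0.178 CPM. The first principal component, with 68.7% of the variance, set the damaged libraries apart from the others, and both genotypes spanned nearly the same range on it (-38.3 to 81.1 in the wild type and -38.1 to 79 in the mutant). The third component, with 2.86% of the variance, ran from -6.28 to 24.3 in the wild type and from -16.1 to -0.354 in the mutant. No gene carries the name MpGLR in the names used, so its level was not analysed here and could not serve to check the genotype labels.

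Few genes differed between the genotypes, and 2 of them by more than any other abundant gene. Mp7g01940 was 19.1-fold and Mp3g21250 14.7-fold higher in the mutant, in intact, damaged and systemic tissue alike. In all, 42 genes were called at an adjusted p under 0.05 (edgeR quasi-likelihood test with Benjamini-Hochberg adjustment), which is 0.312% of the genes tested. Of these, 29 were higher in the mutant (0.216%) and 13 were lower (0.0967%). Most differences were small. The median absolute log2 fold change of the 42 genes was 0.42, 24 lay under 0.5, and 11 reached 1, of which 7 were higher and 4 lower. The median log2 fold change of all tested genes was -0.000586. Without an adjustment 1186 genes (8.82%) had a p under 0.05.

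**Figure D1:**
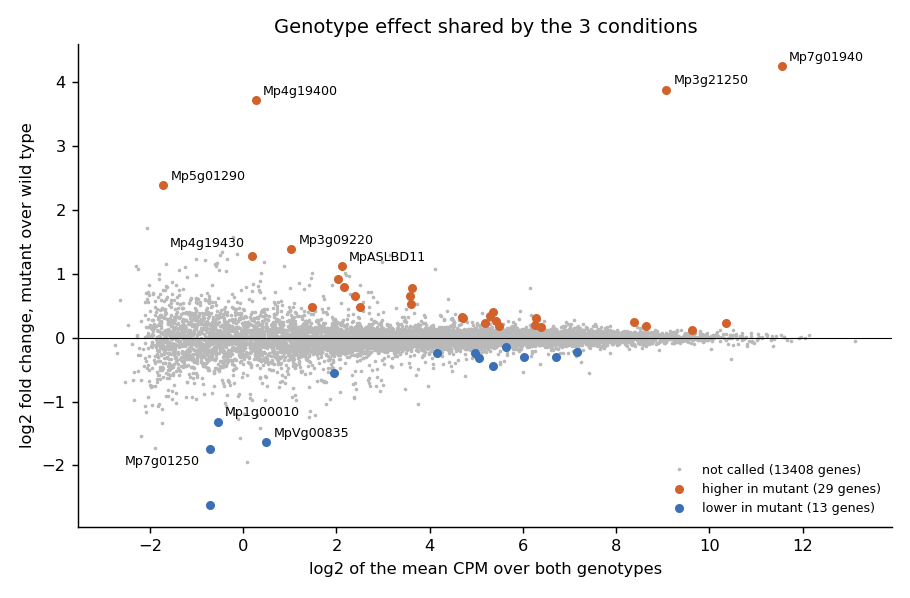
Shared log2 fold change of the mutant over the wild type (vertical axis) against the log2 mean CPM over both genotypes (horizontal axis), 1 point per tested gene. Orange points are the 29 genes called higher and blue points the 13 called lower; names mark genes described in the text with an absolute log2 fold change of at least 1, and Mp7g01940 and Mp3g21250 stand far above every gene of like abundance.

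The counts of called genes depended on the method and on single libraries. DESeq2 called 116 genes for the shared effect. A replicate block common to all groups gave 79, and a replicate block inside each condition 211. Leaving out wild-type systemic replicate 2 or mutant systemic replicate 1 left 19 higher genes in either case, and leaving out wild-type systemic replicate 1 left 8 lower genes. The total stayed between 28 and 52 genes when any 1 library was left out, and 26 of the 42 genes kept their call in all 18 such fits. Fitting 2 tissue states in place of 3 was more costly, and 3 genes, Mp7g01940, Mp3g21250 and MpVg00700, kept their call whichever state was left out.

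Precision was high for most genes. The 95% interval of the shared log2 fold change lay within ±0.5 for 84% of the tested genes, and for 91.7% of the 12261 genes with a mean of at least 1 CPM in 1 genotype. It lay within ±1 for 95.4% of all tested genes.

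Mp7g01940 led the list. It has no symbol in the names used, so no role can be given. In intact thallus its level was 298, 335 and 305 CPM in the wild-type libraries and 6202, 6270 and 5822 CPM in the mutant libraries. In crushed lobes the wild-type libraries had 284, 269 and 291 CPM and the mutant ones 4749, 4754 and 5280 CPM. In systemic lobes they had 304, 305 and 305 CPM against 6104, 6157 and 6306 CPM. The lowest mutant library thus stood far above the highest wild-type library, and within each group of 3 libraries the levels were close together. In the mutant the crushed lobes had the lowest levels, and all other libraries had 5822 CPM or more. Over both genotypes the gene was called lower in damaged than in intact tissue (log2 fold change -0.23; edgeR, adjusted p = 1.52e-04). The shared log2 fold change was 4.25 ± 0.04 (SE, n = 9 libraries per genotype; edgeR quasi-likelihood test, adjusted p = 5.56e-24). The nearest tested neighbours by locus number, Mp7g01910, Mp7g01950 and Mp7g01960, had log2 fold changes of -0.04, -0.05 and 0.03, and none was called.

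Mp3g21250 showed the same pattern at a lower level. Wild-type libraries ran from 53.6 to 85.4 CPM with a median of 68.5, and mutant libraries from 774 to 1136 CPM with a median of 1110. The lowest mutant values, 810, 774 and 872 CPM, were those of crushed lobes, and all other mutant libraries had 1027 CPM or more. The shared log2 fold change was 3.88 ± 0.10 (edgeR, adjusted p = 4.55e-14). Its tested neighbours Mp3g21220, Mp3g21260 and Mp3g21280 had log2 fold changes of 0.06, 0.31 and 0.01 and were not called.

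Mp4g19400 was nearly silent in the wild type. Its 9 wild-type libraries held 38 counts together and ran from 0 to 0.525 CPM with a median of 0.0697, while the 9 mutant libraries held 486 counts and ran from 1.55 to 3.01 CPM with a median of 2.15. The groups did not overlap, although 3 wild-type libraries were at 0 counts. The fitted log2 fold change was 3.72 ± 0.45 (edgeR, adjusted p = 4.36e-04), and its size depends on how so few wild-type counts are modelled. The next tested gene by locus number, Mp4g19430, was also called, at 1.28 ± 0.23 (edgeR, adjusted p = 0.0113). Its wild-type libraries ran from 0.222 to 1.29 CPM and its mutant libraries from 0.921 to 1.96 CPM, so that the groups overlapped slightly.

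**Figure D2:**
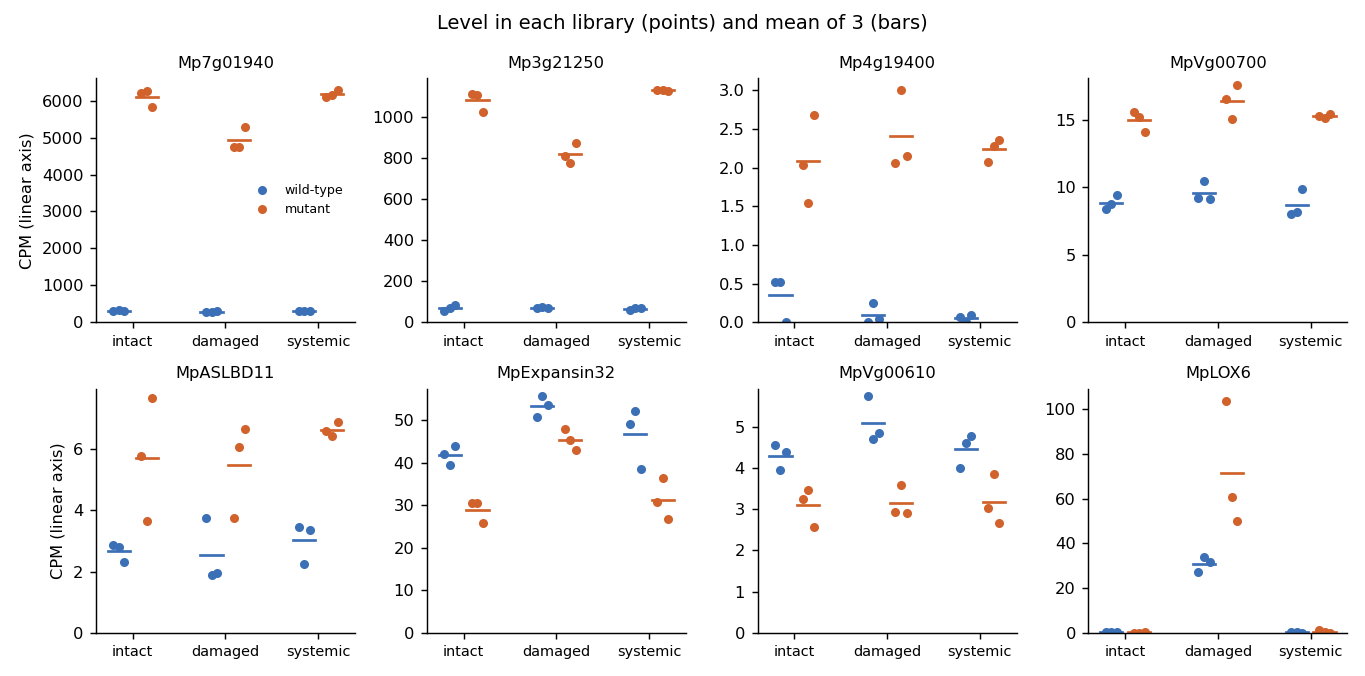
Level in CPM (vertical axes, linear and starting at 0, with a scale for each panel) of 8 genes in each library, by tissue state (horizontal axis). Points are the 3 libraries of a group, bars their mean, blue the wild type and orange the mutant. Every gene but MpLOX6 separates the genotypes inside each state, and MpLOX6, which was not called, was high only in crushed lobes.

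MpASLBD11 (Mp5g10960), a member of the plant-specific LBD family of transcription factors by its symbol, was the only called gene whose symbol is that of a transcription factor. Wild-type libraries had 1.90 to 3.73 CPM with a median of 2.81, and mutant libraries 3.66 to 7.66 CPM with a median of 6.41. Within each tissue state all mutant libraries were above all wild-type ones, and the state-by-state log2 fold changes were 1.10, 1.13 and 1.13. The shared value was 1.12 ± 0.16 (edgeR, adjusted p = 0.00132).

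Other genes called higher were scarce transcripts with no symbol. Mp3g09220 rose from a median of 1.32 to 2.79 CPM, with a log2 fold change of 1.38 ± 0.24 (edgeR, adjusted p = 0.00828). Mp2g10850 had 0.91, Mp5g19850 0.80, Mp2g00860 0.65 and Mp3g09160 0.52. Of these 5 genes, Mp3g09220, Mp5g19850 and Mp3g09160 had no mutant library as low as the highest wild-type one. Mp2g00860 lost its call in 7 of the 18 fits without 1 library.

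At the end of the range, Mp7g13090 and Mp8g17810 had log2 fold changes of 0.48 and 0.40. The calls of both were lost in some fits without 1 library, in 8 of 18 for Mp7g13090. A further 11 genes without a symbol had log2 fold changes from 0.124 to 0.325, at wild-type medians of 22.3 to 1371 CPM. These transcripts were mostly abundant, and their differences in level were small beside those of the leading genes.

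A called member was also found among chalcone synthases and related polyketide synthases, which make flavonoid precursors. MpPKS/CHS-like3 (Mp5g21320) had wild-type levels of 59.4 to 90.7 CPM and mutant levels of 70.2 to 101 CPM, which overlapped. Its log2 fold change was 0.17 ± 0.03 (edgeR, adjusted p = 0.026), and it lost its call in 8 of the 18 fits without 1 library. It was the 1 called gene of 48 tested on the flavonoid list, beside 0.312% of all tested genes, and the list's median was 0.02.

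Of 110 tested cell wall genes 2 were called, 1 in each direction, beside 0.312% of all tested genes, and the list's median was -0.03. MpGH16.12 (Mp2g21520), of a glycoside hydrolase family whose plant members cut and rejoin xyloglucan, ran from 26.1 to 43.4 CPM in the wild type and from 30.1 to 55.3 CPM in the mutant. Its log2 fold change was 0.33 ± 0.06 (edgeR, adjusted p = 0.0251), and it lost its call in 7 of the 18 fits without 1 library. MpExpansin32 (Mp4g06560), of a family that loosens cell walls, was lower in the mutant, with 38.7 to 55.9 CPM (median 49.2) in the wild type and 25.8 to 47.9 CPM (median 30.9) in the mutant. Its groups overlapped over all 18 libraries but not inside any tissue state. The log2 fold change was -0.45 ± 0.07 (edgeR, adjusted p = 0.00429).

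Most of the genes that were lower in the mutant had small differences at moderate levels and no symbol. Mp2g16940, Mp5g08580, Mp1g01040, Mp5g04450, Mp3g22990, Mp7g10860 and Mp4g04040 had log2 fold changes of -0.31, -0.30, -0.30, -0.24, -0.23, -0.22 and -0.14. Mp1g01040 had the smallest adjusted p of the lower genes (edgeR, 0.00132), at a median of 83.3 CPM in the wild type and 66.8 CPM in the mutant. Without 1 library, Mp2g16940 lost its call in 6 of 18 fits, Mp4g04040 in 11 and Mp3g22990 in 15.

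Below 1 CPM in both genotypes, 3 more genes were called, and they are named here after their values were seen. Mp5g01290 had 22 counts over the wild-type libraries and 118 over the mutant libraries, Mp7g01250 had 212 and 63, and Mp1g00010 had 203 and 80. Their log2 fold changes were 2.39, -1.74 and -1.32. Mp1g00010 lost its call in 15 of the 18 fits without 1 library.

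By the chromosome that the identifiers name, called genes lay on all 8 autosomes and on the V chromosome, the male sex chromosome, among other sequence. On the autosomes the called share ran from 0.128% on chromosome 1 to 0.555% on chromosome 5. It was 12.5% on the V chromosome, with 5 of 40 tested genes. That share rests on few genes, was not tested, and is not shown to be particular to the V chromosome. V chromosome genes of both genotypes gave reads, and 39 of the 40 had at least 1 count in every library.

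The 5 V chromosome genes went in both directions. MpVg00700 ran from 7.98 to 10.4 CPM in the wild type and from 14.1 to 17.6 CPM in the mutant, with no overlap. At 0.78 ± 0.05 (edgeR, adjusted p = 3.23e-08) it was 1.72-fold higher, the third smallest p of the comparison. Its tested neighbour MpVg00690 was higher by 0.65 ± 0.09 (edgeR, adjusted p = 9.03e-04), with 3.44 to 5.07 CPM against 5.35 to 7.51 CPM, and MpVg01223 by 0.49 (adjusted p = 0.031). Both MpVg00690 and MpVg00700 kept their calls without any 1 library, whereas MpVg01223 lost its call in 13 of 18 such fits.

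MpVg00610 and MpVg00835 were lower. MpVg00610 had 3.94 to 5.75 CPM in the wild type and 2.57 to 3.85 CPM in the mutant, which did not overlap, and a log2 fold change of -0.55 ± 0.10 (edgeR, adjusted p = 0.0101). MpVg00835 varied widely within each genotype, from 0.711 to 3.95 CPM in the wild type and from 0.135 to 1.71 CPM in the mutant, and its log2 fold change was -1.63 ± 0.32 (edgeR, adjusted p = 0.0301). It lost its call in 10 of 18 fits without 1 library, and also when libraries of the same plant pool were tied by a random block. The summed level of the 40 tested genes was alike in both genotypes, 3052 to 4760 CPM in the wild type and 3130 to 4915 CPM in the mutant, and the median of their log2 fold changes was 0.00. How reads were split between these genes and any near-identical copies elsewhere was not tested, since the sources used here do not give the counting options.

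**Figure D3:**
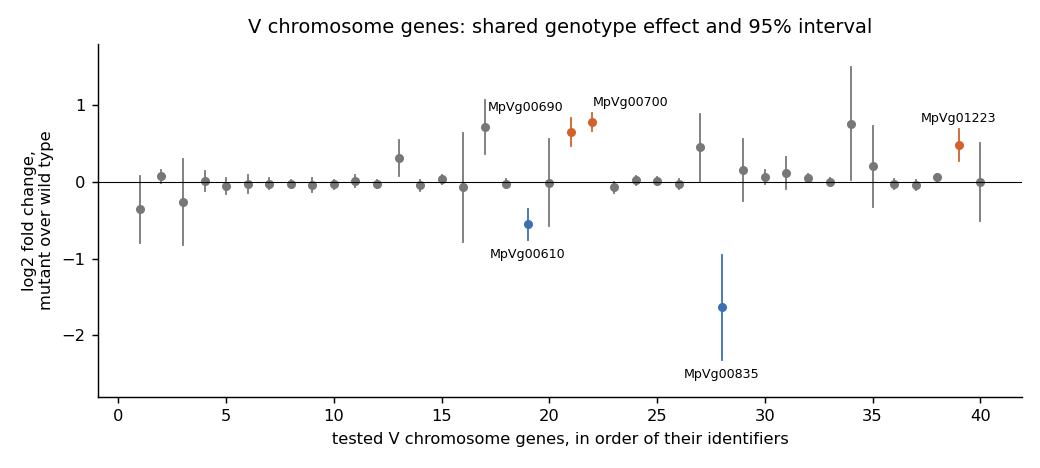
Shared log2 fold change of the mutant over the wild type (vertical axis) with its 95% interval for the 40 tested V chromosome genes, in order of their identifiers (horizontal axis). Orange marks the 3 genes called higher, blue the 2 called lower and grey the others; 4 of the 5 lie in the stretch from MpVg00610 to MpVg00835, where both directions occur.

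A window of 10 tested genes was then used to look for called genes close together, a choice made after the calls were seen. Besides the V chromosome stretch and the pair Mp4g19400 and Mp4g19430, called genes lay close at Mp3g09160 and Mp3g09220 (5 tested genes between them) and at Mp5g21250 and MpPKS/CHS-like3 (4 between them). Both genes of each of these pairs were higher in the mutant.

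No gene was switched on or off outright. Among genes with 0 counts in all 9 mutant libraries, 359 had reads in the wild type, but none had at least 3 counts in every wild-type library, and the largest total was 11 counts over 9 libraries. In the other direction 416 genes had 0 counts in all wild-type libraries, and again none had 3 counts in every mutant library. The largest count in 1 library was 25 for genes seen in the mutant only and 7 for genes seen in the wild type only.

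The 3 tissue states gave the same direction for all 42 called genes, against 34.5% of all tested genes. Since the shared fit uses these same libraries, that count describes the calls and does not test them. Inside each of the 3 states the mutant and wild-type libraries did not overlap, in 1 direction, for 32 of the 42 genes (22 higher and 10 lower), against 41 of all tested genes (0.305%; 0.193% higher and 0.112% lower). Over all 18 libraries 9 genes had every mutant library above every wild-type one (0.0669% of those tested) and 2 had every one below (0.0149%), and all 11 were among the 42.

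**Figure D4:**
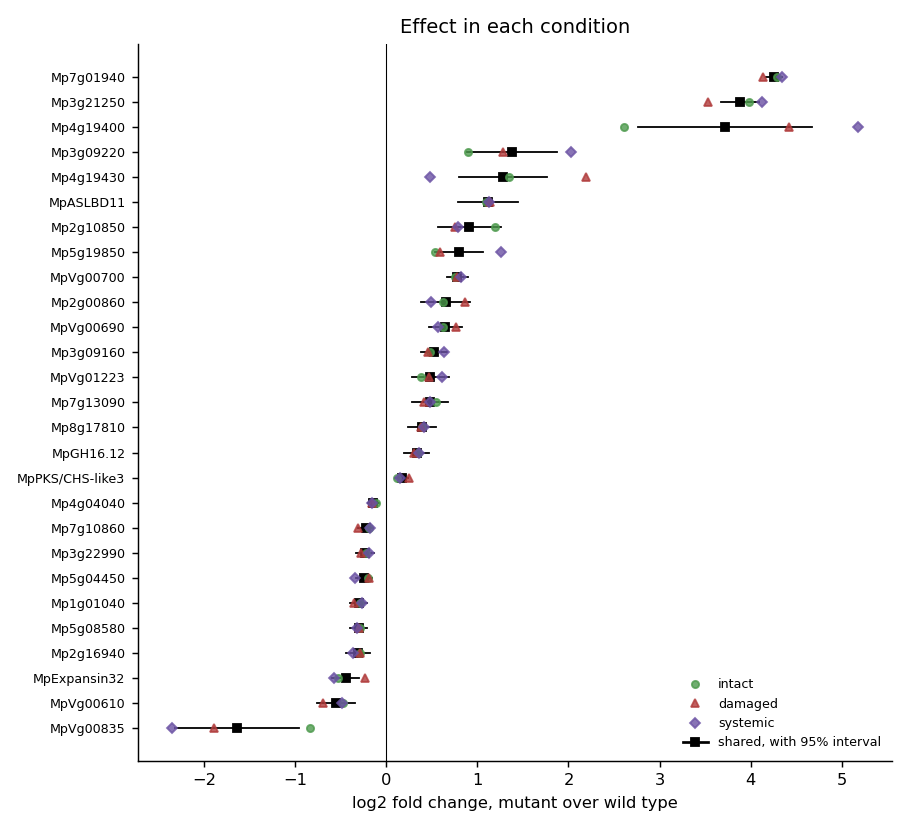
Log2 fold change of the mutant over the wild type (horizontal axis) for the called genes chosen by the naming rule and described in the text, 1 row each. Black squares with lines are the shared value and its 95% interval, and coloured symbols the value in each tissue state; the states fall on the same side of 0 for every gene, and spread most for Mp4g19400, Mp4g19430 and MpVg00835.

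With 3 against 3 libraries in 1 tissue state, fewer genes were called, all of them higher in the mutant and all among the 42. There were 3 in intact thallus (0.0223% of those tested), 4 in damaged lobes (0.0297%) and 7 in systemic lobes (0.052%). At an unadjusted p under 0.05 the shares were 2.99%, 5.81% and 5%. Mp7g01940, Mp3g21250 and MpVg00700 were called in every state. Mp4g19430 was called in damaged lobes (edgeR, adjusted p = 0.0150). Mp4g19400, Mp5g19850 and Mp6g17220 were among those called in systemic lobes (edgeR, adjusted p = 0.0252, 0.00733 and 0.0128). In intact and in damaged tissue all same-numbered mutant and wild-type libraries deviated together (correlations over 0.1), and with a replicate block inside each condition 17 and 49 genes were called there, and 44 in systemic tissue, where not all did. The counts also rested on single libraries. Damaged lobes had 7 genes without wild-type intact replicate 3 and 11 without wild-type damaged replicate 3. Systemic lobes had 11 genes without wild-type damaged replicate 3, 3 without wild-type systemic replicate 1 or 2, and 4 without wild-type systemic replicate 3 or mutant systemic replicate 2 or 3.

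Whether the genotype effect itself differed between tissue states was tested with the interaction. No gene was called (edgeR, smallest adjusted p = 1), DESeq2 and limma-voom also called 0, and 304 genes (2.26%) had an unadjusted p under 0.05. Mp3g21250 had a smaller fold change in crushed lobes (log2 3.53) than in intact (3.98) or systemic tissue (4.12), with an unadjusted interaction p of 0.00518. Mp4g19430 had 2.19 in damaged, 1.35 in intact and 0.48 in systemic tissue (unadjusted p = 0.00537). Mp7g01940 had 4.13, 4.29 and 4.34 in damaged, intact and systemic tissue (unadjusted p = 0.0452). None of these differences held after adjustment over all genes.

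None of the 5 genes with the lowest interaction p was called for the shared effect. MpCYP816A1 (Mp7g14540), a cytochrome P450, had a log2 fold change of 0.42 in damaged lobes and of -0.03 and 0.03 in intact and systemic tissue (unadjusted p = 0.00212). MpLTP-like68 (Mp4g08220), of the lipid transfer protein family by its symbol, had -0.47 in damaged lobes, 0.16 in intact and -0.06 in systemic tissue (unadjusted p = 0.00238). Mp5g04540 had 2.22 in systemic, 1.09 in intact and -0.15 in damaged tissue (unadjusted p = 0.00202). Their adjusted p was 1 throughout, as it was for Mp3g23000 and Mp5g05030.

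Wounding moved far more genes than the genotype did. Over both genotypes 9023 genes were called between damaged and intact tissue (67.1% of those tested, 32.8% higher and 34.3% lower). Of the 42 genotype genes, 21 were also called for wounding, 8 higher and 13 lower. Of the genes higher in the mutant, 2 were higher and 10 lower after crushing. Of those lower in the mutant, 6 were higher and 3 lower after crushing. Both comparisons use the same libraries. Among the 1699 genes whose level changed at least 2-fold on wounding, 5 were called for genotype (0.294%). For 988 of them the 95% interval of the genotype effect lay within ±0.5, a smaller share than the 84% of all tested genes.

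**Figure D5:**
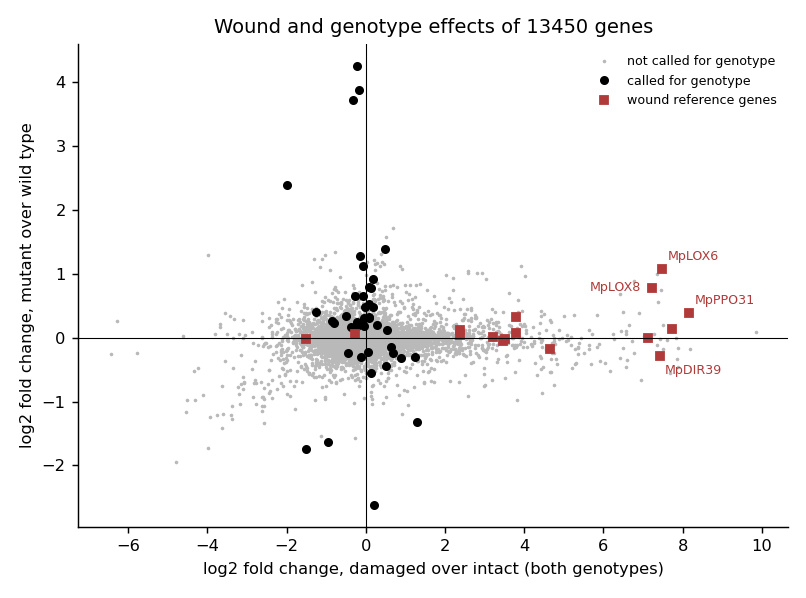
Shared log2 fold change of the mutant over the wild type (vertical axis) against the log2 fold change of damaged over intact tissue in both genotypes (horizontal axis), 1 point per tested gene. Black points are the 42 genes called for genotype, and red squares the 16 wound-response reference genes, none of which was called. Mp7g01940, Mp3g21250 and Mp4g19400, the highest on the vertical axis, lie at -0.23, -0.18 and -0.32 on the wound axis. Mp5g01290, Mp7g01250 and MpVg00835 lie farther below 0 on the wound axis, and Mp1g00010 lies well above it.

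Genes of oxylipin synthesis and signalling, known from earlier results of these data to respond to crushing, were measured with narrow intervals and did not pass the test. For MpLOX2, a lipoxygenase that starts oxylipin synthesis by oxidising polyunsaturated fatty acids, the levels ran from 142 to 2105 CPM in the wild type and from 144 to 2034 CPM in the mutant. Its log2 fold change was -0.02, with a 95% interval from -0.15 to 0.10. For MpJAZ the value was 0.05 (-0.07 to 0.17) and for MpCOI1 0.06 (-0.00 to 0.12). None of 14 tested genes for allene oxide synthases, cyclases, OPDA reductases and desaturases was called, beside 0.312% of all tested genes. All 14 intervals lay within ±0.5, against 84% of all tested genes.

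A pair of lipoxygenases with little expression outside crushed tissue had wider intervals. MpLOX6 (Mp2g12180) reached 27.1, 33.7 and 31.9 CPM in wild-type crushed lobes and 104, 60.7 and 50.0 CPM in mutant ones, and stayed at or under 1.31 CPM elsewhere. MpLOX8 (Mp2g12220) reached 143, 154 and 125 CPM against 400, 240 and 199 CPM in the same lobes. In crushed lobes the mutant libraries thus exceeded the wild-type ones for both genes, and elsewhere the genotypes overlapped. The shared log2 fold changes were 1.08 (0.43 to 1.73; edgeR, adjusted p = 0.231) and 0.79 (0.20 to 1.37; adjusted p = 0.38). With limma-voom both passed the threshold, at 1.09 (adjusted p = 0.00958) and 0.89 (adjusted p = 0.0263). Over all alternatives the adjusted p ran from 0.00748 to 0.948 for MpLOX6 and from 0.0263 to 0.978 for MpLOX8. Whether these genes were called for the shared effect thus depended on the method. Their shared values cover unlike states. In intact, damaged and systemic tissue the log2 fold changes were -0.56, 1.21 and 1.19 for MpLOX6 and -0.63, 0.99 and 0.92 for MpLOX8. Within damaged lobes alone neither was called (edgeR, adjusted p = 0.588 and 0.695). Over the 15 tested lipoxygenases 0 were called with edgeR, beside 0.312% of all tested genes, and the median was -0.08.

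Genes of phenolic defence were read in the same way. Mp4CL2 and MpPAL4, enzymes at the entry to phenylpropanoid synthesis, had log2 fold changes of 0.02 (95% interval -0.11 to 0.14) and 0.12 (-0.18 to 0.43). For the polyphenol oxidases MpPPO42 and MpPPO31 the values were -0.18 (-0.42 to 0.06) and 0.39 (-0.27 to 1.06). The dirigent genes MpDIR39 and MpDIR61, whose family guides the coupling of phenoxy radicals, had -0.29 (-1.04 to 0.45) and 0.14 (-0.58 to 0.86). The shared values of MpDIR39, MpDIR61 and MpPPO31 cover unlike states. In intact thallus, at low levels, their log2 fold changes were -2.55, -3.09 and -3.01. They were 0.15, 0.31 and 0.57 in damaged lobes and -0.30, 0.79 and -1.32 in systemic lobes. The unadjusted interaction p (edgeR) was 0.0128, 0.108 and 0.0536, and none held after adjustment. By family 0 of 15 phenylpropanoid entry genes, 0 of 36 polyphenol oxidases, 0 of 47 dirigent genes and 0 of 102 class III peroxidases were called, with medians of 0.06, -0.02, -0.07 and -0.01. With 0.312% of all tested genes called, lists of this size would hold few or no called genes at the same share, so these counts do not set the families apart from other genes. The intervals of MpPPO31, MpDIR39 and MpDIR61, which are scarce outside crushed tissue, were the widest of these, and a difference inside them was not detectable with these libraries.

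Among regulators, MpERF15 had 0.07 (-0.23 to 0.36), MpBHLH4 -0.01 (-0.51 to 0.49) and MpWRKY7 0.33 (-0.61 to 1.27). Counts of called genes were 0 of 12 WRKY, 0 of 22 AP2/ERF, 0 of 8 NAC, 0 of 44 MYB and 0 of 37 bHLH factors, again to be read beside 0.312% of all tested genes. MpGH3A, of a family whose members join amino acids to hormones, had -0.04 (-0.21 to 0.12), and the histone gene MpH3.1d -0.03 (-0.24 to 0.19).

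Because MpGLR is a channel gene, transport and signalling lists were read as well. None of 32 ion transport genes (pumps and channels) and none of 6 calcium signalling genes was called, with medians of -0.02 and 0.00. Of their intervals 28 and 6 lay within ±0.5. Over all tested genes 0.312% were called and 84% of the intervals lay within ±0.5. Nitrogen and phosphate transport had 11 of 36 genes at an unadjusted p under 0.05, against 8.82% of all tested genes, with 0 called and a median of -0.06. Genes of abscisic acid response, LEA proteins and dehydrins had 0 of 71 called and the list median farthest from 0, -0.18, with 29 of 71 intervals within ±0.5. The other lists, of auxin, cytokinin and ethylene, cytochromes P450, pathogenesis-related proteins, cupins, redox enzymes, 2-oxoglutarate-dependent oxygenases, heat shock proteins, terpene synthesis, the Calvin cycle and chlorophyll, and clock and light genes, had no called member. With 0.312% of all tested genes called, lists of these sizes would hold few or no called genes at the same share. These counts of called genes thus do not set the lists apart from other genes.

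Markers of the cell types of the thallus were at like levels in both genotypes. The summed level of 49 histone and cell cycle genes, which mark dividing cells, ran from 2463 to 3534 CPM in the wild type and from 2447 to 3372 CPM in the mutant. For 4 genes of oil body cells (MpC1HDZ, MpSYP12B, MpERF13 and MpABCG1) it ran from 126 to 518 CPM and from 121 to 486 CPM. For the rhizoid markers MpROP and MpBHLH14 it was 227 to 292 CPM against 233 to 303 CPM, for the gemma cup markers MpKAR and MpGCAM1 43.5 to 69.5 CPM against 47.6 to 65.8 CPM, and for the air pore gene MpNOP1 85.6 to 104 CPM against 77.6 to 99.8 CPM. None of these markers was called, beside 0.312% of all tested genes. On the list of male germ cells and the sexual phase, the sperm protamine gene MpPRM was nearly absent from both genotypes. It had 2 counts over the wild-type libraries and 3 over the mutant ones, and MpBHLH20 had 2 and 13. Other members gave more reads, with 211 and 218 counts for MpDUO1 and 1122 and 1320 for MpR2R3-MYB1. The 4 tested genes of this list, MpGI and MpFKF among them, summed to 258.5 to 306.8 CPM in the wild type and 257.1 to 301 CPM in the mutant. In bulk tissue, fewer cells of a type and less RNA per cell cannot be told apart.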

How the data were processed

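The authors deposited raw read counts per gene for 18 libraries. Per the submitters' processing notes HISAT2 and HTSeq were used; the sources used here do not give versions, genome build, strand setting or the wild-type accession. Without a known strand setting, overlapping genes on opposite strands cannot be told apart, and copies of near-identical sequence may exchange reads. Per the labels' protocols, poly-A selected RNA was sequenced in pairs of 150 bases. There were 3 empty columns, which were not used.

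Symbols were taken by locus number from assembly MpTak2_v7.1 (17384 of 19355 identifiers matched, 89.8%; 3091 had a symbol). Of the 42 called genes 33 matched and 4 had a symbol. No coordinate or sequence was used.

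edgeR 4.0.16 (R 4.3.3) was run on the counts with filterByExpr over the 6 groups, TMM scaling and a robust quasi-likelihood fit on tissue state and genotype. Tests were two-sided, with Benjamini-Hochberg adjustment over the 13450 tested genes and calls at an adjusted p under 0.05. The interaction and within-state effects came from 6 group means over the same libraries. SE is the log2 fold change divided by the square root of F. Limits of 3 counts cover counting error only, and p-values the spread between these libraries. The edgeR tests counted damaged and systemic libraries as independent, although they came from the same plants. DESeq2 1.42.0 and limma 3.58.1 gave alternatives.

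Named genes were the called genes of largest absolute log2 fold change with at least 1 CPM on average in 1 genotype (up to 15 per direction), up to 3 called members of each list, 16 wound-response genes whether called or not, and the 5 genes of lowest interaction p. The members, the lists and this rule were chosen with earlier results of these data known. Some called genes are not reported here.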

Additional observations from a re-analysis of the deposited data

Results flagged for a closer look

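In 119 of the 13450 tested genes (0.885%), all 3 mutant libraries lay above the wild type in 1 tissue state and below it in another. Of the genes named here, Mp3g23000 and Mp5g05030 did so. They had been chosen for small interaction p-values, so this pattern is a description and not a separate test.

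Mp3g23000 had 0.652, 0.577 and 0.400 CPM in wild-type and 0.960, 1.30 and 1.17 CPM in mutant crushed lobes, but 1.18 CPM or more in every wild-type and 0.676, 0.961 and 0.569 CPM in the mutant systemic libraries. The log2 fold changes were 1.08 and -0.80, with an unadjusted interaction p of 0.00126 in edgeR (adjusted p = 1). With 211 counts in all per genotype, each library held few reads.

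Mp5g05030 had 185, 178 and 168 CPM in wild-type and 302, 232 and 199 CPM in mutant crushed lobes, and 90.1, 86.4 and 88.5 CPM in wild-type and 83.9, 81.6 and 78.3 CPM in mutant systemic lobes. The log2 fold changes were 0.46 and -0.12, with an unadjusted interaction p of 0.00231 in edgeR (adjusted p = 1).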

How the results depend on the processing

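The count of genes called for the shared effect (29 higher, 13 lower) was compared with 34 alternatives, and Mp7g01940, Mp3g21250 and MpVg00700 were called in every one. RLE or upper-quartile scaling and no filter on low counts gave 29 and 13, and limma-voom 33 and 13. DESeq2 called 76 higher and 40 lower genes, with all 42 among them, and 7, 28 and 31 in intact, damaged and systemic tissue alone. Without the intact libraries 16 and 4 were called, without the damaged ones 11 and 4, and without the systemic ones 4 and 1; each such fit has fewer samples. Leaving out replicates (1 library or 1 replicate number) gave 5 to 35 higher and 0 to 19 lower genes, with 8 and 2 without replicate 1, 5 and 0 without replicate 2, and 48 in total without replicate 3. Within states the ranges were 3 to 3 in intact, 3 to 11 in damaged and 3 to 11 in systemic tissue, and 0 to 0 for the interaction. The 6 libraries of a state fitted alone gave 2 in damaged and 28 in systemic tissue; the cause was not tested.

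Replicate numbers were not taken to pair the genotypes over the 3 states, since not all correlations passed 0.1. Same-numbered libraries deviated together with correlations of 0.314, 0.487 and 0.68 in intact, 0.254, 0.117 and 0.391 in damaged, and 0.0876, 0.037 and 0.388 in systemic tissue, and not every library correlated best with its own number. With a replicate block common to all groups 50 higher and 29 lower genes were called, and 9 in damaged and 16 in systemic tissue alone. With a replicate block inside each condition there were 122 and 89, and 17, 49 and 44 in intact, damaged and systemic tissue. The plant pool as a random block in limma-voom, which ties damaged to systemic libraries by number, gave 28 and 12 (consensus correlation 0.121), 36 of them among the 42, so that 6 calls were lost, that of MpVg00835 among them. None of the 28 called genes chosen by the naming rule changed direction, and the direction of the other called genes was not followed. Over the named genes and alternatives 1449 values kept their side of the threshold, 204 lost it and 4 gained it, those of MpLOX6 and MpLOX8 in both limma-voom fits. The values that kept their side include 57 sign changes of genes with no called direction. Depth limits genes under about 1 CPM.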
